A study of Mus musculus with 15 samples.

Results

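The genes described here are 40 genes of DNA replication and mitosis in lymphoma cells of mice. They were chosen by name from the 37583 genes of the RNA count tables, with earlier results of these data known. All 40 were found, each as 1 row. They comprise 18 genes that act mainly around the start of and during S phase and 22 that act mainly in G2 and mitosis. The study compared tumours that carried an empty vector (EV) with tumours with a hairpin RNA directed at Kmt2d, an H3K4 methyltransferase of enhancers (sh-Kmt2d). RNA came from B220-enriched cells taken straight from lymphomas without culture, as 4 EV and 5 sh-Kmt2d libraries, where the design text of the series names 3 samples a group. The sources used here do not give strain, transgenes, age, hairpin sequence or the number of mice, and nothing says that libraries of a group came from separate animals, so p-values measure the spread between these samples, which may be technical. Library titles carry the numbers 78 (EV replicate 1), 87 (EV replicates 2 to 4), 103 (sh-Kmt2d replicates 1 to 3) and 110 (sh-Kmt2d replicates 4 and 5). Since none of these numbers spans both groups, title number and group cannot be told apart.

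Cells duplicate their DNA in S phase and divide in mitosis. E2F factors switch on the replication genes, whose products load the MCM helicase on origins and supply nucleotides. Later a second wave, driven by B-MYB and FOXM1, gives the cyclins, kinases and motors of mitosis. Promoters of its genes often hold elements named CHR and CCAAT. B cell lymphomas commonly hold many dividing cells, and Mki67 is the gene of the Ki-67 antigen by which pathologists score them. In bulk RNA, fewer dividing cells and less of these RNAs per cell cannot be told apart.

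The libraries held 5925745 to 29284830 counts on genes, of which the 40 genes took 0.222% to 0.446% in EV and 0.181% to 0.465% in sh-Kmt2d. Libraries with less of the signal on genes were found mostly in sh-Kmt2d. Reads with more than 1 alignment made up 36.48% to 47.91% in EV and 44.08% to 73.68% in sh-Kmt2d, and reads outside annotated genes 6.08% to 12.93% and 2.69% to 7.0%. sh-Kmt2d replicate 5 stood at the far end of all these, with the fewest counts, only 22.8% of reads on genes and a TMM factor of 0.536 (0.998 to 1.12 elsewhere), which raises its CPM. The part of these differences in the results was not tested. Kmt2d itself stood at 498, 252, 492 and 94.4 CPM in EV replicates 1 to 4 and at 57.4, 46.8, 204, 18.85 and 9.78 CPM in sh-Kmt2d replicates 1 to 5, so that the groups overlapped (CPM is a gene's counts relative to the library total, scaled by edgeR's TMM factors). Libraries differed in the balance of long and short transcripts. An index of 20 long and 20 short genes outside the 40 (median log2 CPM of the long minus that of the short) ran from 2.11 to 3.84 in EV, with replicate 4 lowest, and from -4.55 to 2.50 in sh-Kmt2d, with replicate 5 lowest and replicate 3 highest. Kmt2d moved with this index, as it too was lowest in EV replicate 4 and sh-Kmt2d replicate 5 of their groups, and highest of sh-Kmt2d in replicate 3. The part of this balance in the Kmt2d levels was not tested. All 7 markers of B cells were present, with a summed level of 10090 to 11410 CPM in EV and 10900 to 33600 CPM in sh-Kmt2d.

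Promoters of 5 of the genes are shown to set the elements of the S phase wave beside those of the mitotic wave. Mcm5 and Cdc6 were chosen from the first for their E2F-like letters, and Ube2c, Ccnb2 and Mki67 from the second for their CCAAT and CHR letters. Each sequence is the 250 bases before the RefSeq start site in build GRCm38.p6, on the strand of the gene, with capitals for matches on either strand to TTTNNCGC (E2F-like), CCAAT or TTTGAA (CHR). Mcm5 lies at chr8:75109259-75109508 (+), Cdc6 at chr11:98907901-98908150 (+), Ube2c at chr2:164769679-164769928 (+), Ccnb2 at chr9:70421555-70421804 (-) and Mki67 at chr7:135716380-135716629 (-).
Mcm5: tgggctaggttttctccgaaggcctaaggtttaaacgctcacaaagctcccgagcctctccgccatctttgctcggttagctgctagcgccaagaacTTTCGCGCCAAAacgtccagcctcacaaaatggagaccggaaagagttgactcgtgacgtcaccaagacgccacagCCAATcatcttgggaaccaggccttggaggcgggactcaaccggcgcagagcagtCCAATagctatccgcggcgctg
Cdc6: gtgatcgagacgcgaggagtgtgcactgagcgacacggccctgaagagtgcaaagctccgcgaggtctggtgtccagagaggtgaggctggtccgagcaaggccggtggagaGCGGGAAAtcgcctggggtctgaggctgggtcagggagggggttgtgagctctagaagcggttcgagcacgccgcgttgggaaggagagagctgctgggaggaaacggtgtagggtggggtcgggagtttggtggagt
Ube2c: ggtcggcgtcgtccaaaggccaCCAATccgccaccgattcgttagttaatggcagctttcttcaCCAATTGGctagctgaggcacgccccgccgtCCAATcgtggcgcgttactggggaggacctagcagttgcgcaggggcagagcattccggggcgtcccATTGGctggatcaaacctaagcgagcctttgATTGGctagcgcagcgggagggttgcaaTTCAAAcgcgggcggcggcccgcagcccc
Ccnb2: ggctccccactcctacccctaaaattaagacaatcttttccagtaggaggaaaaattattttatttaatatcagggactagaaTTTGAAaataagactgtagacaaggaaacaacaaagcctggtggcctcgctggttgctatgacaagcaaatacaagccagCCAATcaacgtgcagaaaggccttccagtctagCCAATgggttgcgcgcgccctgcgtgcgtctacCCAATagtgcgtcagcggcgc
Mki67: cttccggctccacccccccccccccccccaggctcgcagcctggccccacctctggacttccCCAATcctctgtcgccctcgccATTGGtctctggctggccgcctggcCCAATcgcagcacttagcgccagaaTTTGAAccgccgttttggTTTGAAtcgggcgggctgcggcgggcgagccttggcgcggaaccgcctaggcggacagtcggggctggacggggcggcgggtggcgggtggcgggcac

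Mcm5 holds 2 overlapping E2F-like matches and 2 CCAAT matches, and Cdc6 holds 1 E2F-like match. Ube2c has 6 CCAAT matches and 1 CHR match, Ccnb2 has 3 and 1, and Mki67 has 3 and 2. None of the last 3 windows has an E2F-like match. Other genes of the set went the other way in the full window of 300 bases, which adds 50 after the start. Ccne1, E2f1, E2f8, Mcm2, Pcna, Rrm1 and Rrm2 had no E2F-like match, Cdk1 of the mitotic wave had 2, and Birc5 and Nusap1 had neither CCAAT nor CHR. Among all 32851 RefSeq windows of 250 bases, 4.28% hold the E2F-like letters, 33.85% hold CCAAT and 15.99% hold TTTGAA. Only 31 of the 40 genes (77.5%) had a window in the table, too few for shares over the whole set, so a comparison of the S phase genes with the mitotic genes by promoter is void. A match is a description of letters, not a site shown to be bound.

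None of the 40 genes was called in edgeR's quasi-likelihood test (Benjamini-Hochberg over 13349 genes). All 40 passed the filter on low counts, and 0 had an adjusted p under 0.05, as did 0% of all tested genes. The smallest adjusted p among them was 0.167 and the largest 0.975. By log2 fold change (sh-Kmt2d relative to EV), 30 genes had positive and 10 negative values, with a median of 0.29 and a range from -1.20 (Cenpe) to 2.10 (Ube2c), while over all tested genes the median was -0.04 and 48.11% were positive. Under total counts without TMM the split was 24 positive to 16 negative and the median 0.12, where the median of all genes was -0.20. With 1 library left out, the median ran from 0.098 (without EV replicate 2, 25 positive to 15 negative) to 0.54 (without EV replicate 4, 33 to 7). At an unadjusted p under 0.05, 6 of 40 (15.0%) were higher, against 17.3% of all genes, and 0 were lower, against 11.1%. The 6 were Ube2c, Cdc20, Gins1, Gins2, Cdk1 and Birc5. DESeq2 called 0 of the 39 to which it gave an adjusted p, against 5.05% of all genes, and gave none for Ube2c. The groups overlapped for every one of the 40 genes, while 5.72% of all genes were higher and 5.12% lower in sh-Kmt2d without overlap.

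**Figure D1:**
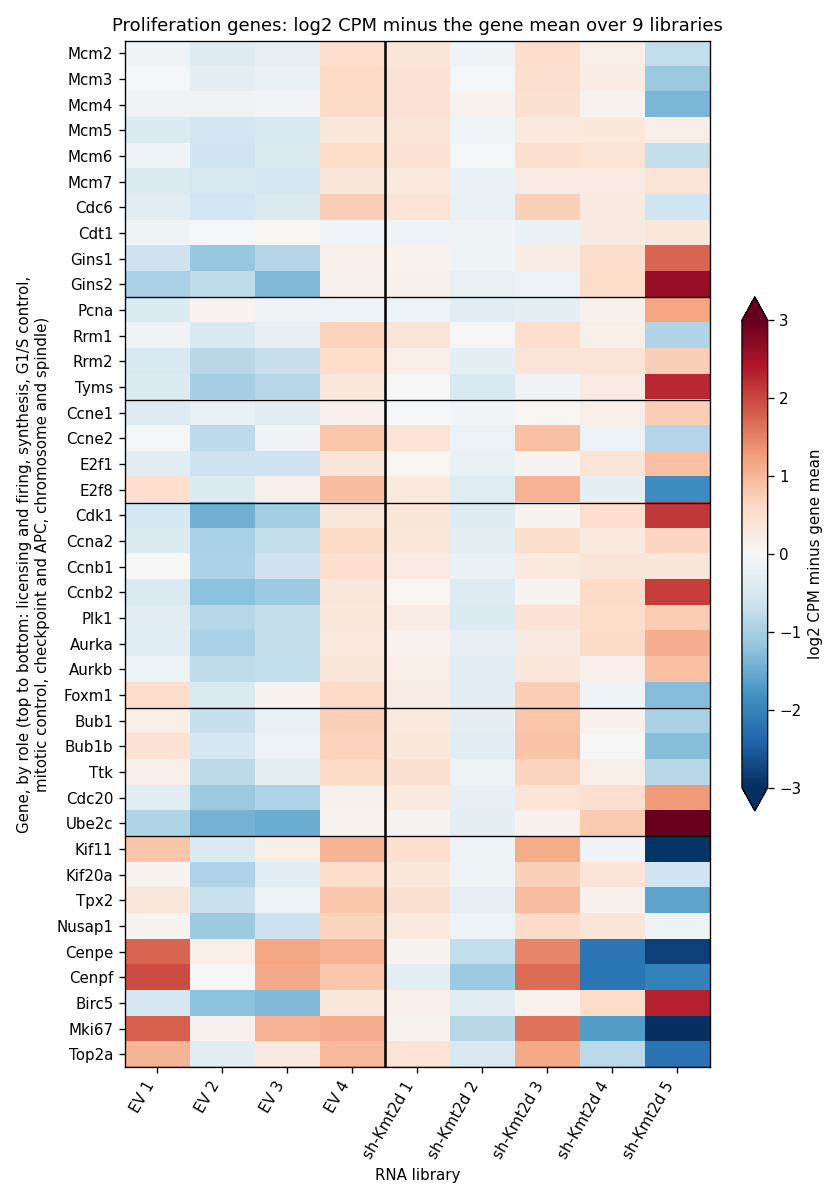
Level of each of the 40 genes (rows, ordered by role) in each of the 9 RNA libraries (columns, EV left of the vertical line), as log2 CPM minus the gene's mean over the libraries, with colours saturating at 3. EV replicate 4 is the highest EV library for 34 genes, and sh-Kmt2d replicate 5 holds both the highest values (18 genes, or 8 under total counts without its TMM factor) and the lowest (17 genes, or 23).

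The calls depended on which libraries entered. EV replicate 4 was the highest of the 4 EV libraries for 34 of the 40 genes, and EV replicate 2 was the lowest for 33. sh-Kmt2d replicate 5 was the highest of all 9 libraries for 18 genes and the lowest for 17, which under total counts became 8 (Gins1, Gins2, Pcna, Tyms, Ccnb2, Cdk1, Birc5 and Ube2c) and 23. With EV replicate 4 alone left out, 16 genes were higher at an unadjusted p under 0.05 and 0 lower, against 14.5% and 12.7% of all genes. After adjustment 0 of the 40 passed, and of all 13632 genes tested 0 passed as higher and 1 as lower. With EV replicate 4 and sh-Kmt2d replicate 5 both left out, a choice made after the data were seen, edgeR called 16 genes higher and 0 lower, against 12.7% of all genes higher and 11.3% lower. These were E2f1, Mcm5, Mcm6, Mcm7, Cdc6, Gins1, Gins2, Rrm2, Ccna2, Ccnb2, Cdk1, Aurka, Plk1, Cdc20, Birc5 and Ube2c, with log2 fold changes from 0.62 (E2f1) to 1.48 (Ube2c). Voom with quality weights per library called 27 genes higher and 3 lower (Mki67, Cenpe and Cenpf), against 29.8% and 30.3% of all genes, with weights from 0.0514 for sh-Kmt2d replicate 5 and 0.373 for EV replicate 4 to 7.63 for sh-Kmt2d replicate 1. Voom with equal weights, added after the data were seen, called 0 of the 40 (0% of all genes in either direction). With titles as random blocks, limma called 0 of the 40 and 0 of all 13349 genes.

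Of the 10 origin licensing and firing genes 9 had positive values, with a median of 0.24 and the highest values at the GINS subunits, and 0 passed the test. The MCM proteins form the hexameric helicase, Cdc6 and Cdt1 load it, and the GINS complex is part of its active form. Mcm4 stood at 113, 112, 114 and 180 CPM in EV replicates 1 to 4. In sh-Kmt2d replicates 1 to 5 it stood at 164, 130.1, 168, 131 and 46.98 CPM. The first 3 EV libraries lay close together, EV replicate 4 lay above every sh-Kmt2d library, and sh-Kmt2d replicate 5 lay below every other, with a log2 fold change of -0.02 ± 0.37 (SE, edgeR, adjusted p = 0.971). Mcm5 had the higher sh-Kmt2d mean, 233 ± 27.8 CPM (SD, n = 5) against 169.5 ± 55.1 CPM (SD, n = 4). Over the 6 MCM genes log2 fold changes ran from -0.02 to 0.46. Cdt1 was the steadiest of the 40, at 62.4 to 70.5 CPM in EV and 59.9 to 87.3 CPM in sh-Kmt2d. Cdc6 had 14.7 ± 7.1 CPM among EV libraries (SD, n = 4) against 17.3 ± 5.9 CPM among sh-Kmt2d libraries (SD, n = 5).

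Gins1 stood at 7.37, 5.18, 6.21 and 12.5 CPM in the 4 EV libraries. Its values in the 5 sh-Kmt2d libraries were 12.25, 10.3, 13.2, 16.2 and 38.15 CPM. EV replicate 4 lay among the sh-Kmt2d values and the other 3 below all of them, with a log2 fold change of 1.18 ± 0.45 (SE, edgeR, adjusted p = 0.167). Gins2 had 6.31 to 17.2 CPM in EV and 13.4 to 95.2 CPM in sh-Kmt2d, with 95.2 CPM in replicate 5 and at most 22.9 CPM in the others (1.65 ± 0.66, SE, adjusted p = 0.167). Without sh-Kmt2d replicate 5 the log2 fold changes of Gins1 and Gins2 were 0.72 and 0.71.

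Within the MCM hexamer the make-up of the counts varied between libraries and stood furthest out in sh-Kmt2d replicate 5. Mcm7 took 8.15% to 9.21% of the counts on Mcm2 to Mcm7 in EV and 8.51% to 9.45% in sh-Kmt2d replicates 1 to 4. In sh-Kmt2d replicate 5 it took 17.2% (95% Wilson interval 15.6% to 18.8%). Mcm5 took 33.3% there (31.3% to 35.3%) and 18.2% to 22.05% elsewhere. Mcm4 took 6.82% there (5.84% to 7.95%). Elsewhere it ran from 11.7% in sh-Kmt2d replicate 4 (11.2% to 12.2%) to 16.3% in EV replicate 2 (15.6% to 17.0%). sh-Kmt2d replicate 4, the other library of title 110, held the lowest Mcm4 share and the highest Mcm5, Mcm6 and Mcm7 shares of the remaining 8 libraries. The intervals cover counting error only.

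**Figure D2:**
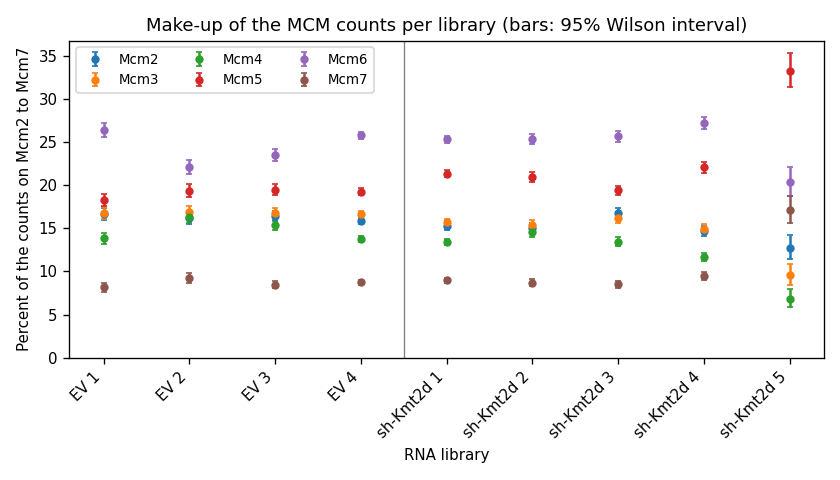
Percent of the counts on Mcm2 to Mcm7 that each of the 6 genes took (vertical axis, starting at 0) in each RNA library (horizontal axis), with 95% Wilson intervals for counting error. The shares stand furthest out in sh-Kmt2d replicate 5, where Mcm5 and Mcm7 take 33.3% and 17.2% and Mcm4 takes 6.82%. They vary less among the other libraries, where Mcm4 takes 11.7% to 16.3%.

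The 4 DNA synthesis genes all had positive values, with a median of 0.48, and 0 passed the test. Rrm1 and Rrm2, the subunits of ribonucleotide reductase, had 159 ± 59.7 and 63.9 ± 31.7 CPM among EV libraries (SD, n = 4) against 168 ± 53.75 and 95.4 ± 23.5 CPM among sh-Kmt2d libraries (SD, n = 5). By library Rrm1 read 145.5, 112.9, 130.2 and 246 CPM for EV, then 203.6, 156.3, 221, 175.1 and 82.61 CPM for sh-Kmt2d, with replicate 5 the lowest of all 9. The log2 fold change of Rrm1 was 0.08 ± 0.35 (SE, edgeR, adjusted p = 0.874). Tyms, which makes thymidylate, stood at 21.4, 14.4, 15.8 and 35.9 CPM in EV, then at 28.9, 20.55, 26.8, 33.95 and 138 CPM in sh-Kmt2d. Only sh-Kmt2d replicate 5 lay above EV replicate 4, and the log2 fold change was 1.17 ± 0.60 (SE, adjusted p = 0.208), or 0.33 without replicate 5. Pcna, the sliding clamp of DNA polymerases, stood at 99, 139.8, 122 and 119 CPM in EV, then at 120.3, 106, 109, 143 and 300.8 CPM in sh-Kmt2d. Its log2 fold change of 0.38 ± 0.35 (SE, adjusted p = 0.443) was -0.0036 without sh-Kmt2d replicate 5. Pcna, Tyms, Ccnb1 and Ccnb2 have named pseudogenes in RefSeq, whose shared reads may have been lost in counting, so their levels are uncertain.

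Of the 4 G1/S controllers 3 had positive values, with a median of 0.22, and 0 passed the test. E2f1, an activator of replication genes, had 24.1 ± 8.6 CPM among EV libraries (SD, n = 4) against 34.9 ± 11.0 CPM among sh-Kmt2d libraries (SD, n = 5), a log2 fold change of 0.53 ± 0.305 (SE, edgeR, adjusted p = 0.244). By library E2f1 read 22.54, 18.37, 18.61 and 36.67 CPM for EV, then 29.66, 24.61, 30.12, 36.95 and 52.97 CPM for sh-Kmt2d, and EV replicate 4 lay above 3 sh-Kmt2d libraries. E2f8, a repressor of the same family, had 22.5 ± 8.5 and 17.97 ± 11.6 CPM in the same order. The cyclin E genes Ccne1 and Ccne2, partners of Cdk2 at S phase entry, had 15.05 ± 2.54 and 14.2 ± 6.7 CPM among EV libraries (SD, n = 4) against 19.85 ± 5.08 and 14.6 ± 6.7 CPM among sh-Kmt2d libraries (SD, n = 5). By library Ccne2 read 13.06, 7.762, 12.46 and 23.55 CPM for EV, then 17.79, 11.73, 24.67, 11.77 and 7.252 CPM for sh-Kmt2d, a mixture of high and low values in both groups. For Ccne2 the log2 fold change was 0.05 ± 0.41 (SE, adjusted p = 0.931). In sh-Kmt2d replicate 5 Ccne2 (23 counts) and E2f8 (15 counts) were at their lowest of the 9 libraries. Ccne1 and E2f1 were at their highest there, although under total counts Ccne1 and E2f1 were highest in EV replicate 4.

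Among the kinases and cyclins of mitotic entry, 7 of 8 had positive values with a median of 0.63, and 0 passed the test. Cdk1, the kinase that starts mitosis, stood at 39.25, 20.7, 27.7 and 70.3 CPM in EV. In sh-Kmt2d it stood at 71.8, 43, 59.3, 79.3 and 244 CPM. EV replicate 4 lay above 2 of the 5 sh-Kmt2d libraries, and the log2 fold change was 1.33 ± 0.57 (SE, edgeR, adjusted p = 0.171), or 0.68 without replicate 5. Its B cyclin partners Ccnb1 and Ccnb2 had 9.70 ± 4.36 and 41.6 ± 22.4 CPM among EV libraries (SD, n = 4) against 12.6 ± 1.9 and 98.2 ± 80.8 CPM among sh-Kmt2d libraries (SD, n = 5). Ccna2, the cyclin of S and G2 phase, had 36.1 to 105.9 CPM in EV and 59.4 to 111 CPM in sh-Kmt2d. The mitotic kinases Plk1, Aurka and Aurkb had 27.9 ± 10.9, 21.8 ± 8.9 and 40.9 ± 15.9 CPM among EV libraries (SD, n = 4) against 44.6 ± 12.25, 37.45 ± 13.7 and 60.3 ± 18.9 CPM among sh-Kmt2d libraries (SD, n = 5). Foxm1, the transcription factor of the mitotic wave, had the only negative value of the 8, -0.25 ± 0.38 (SE, adjusted p = 0.633), and by library it read 45.56, 23.74, 33.92 and 48.06 CPM for EV, then 37.09, 25.37, 53.21, 29.26 and 12.93 CPM for sh-Kmt2d.

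Of the 5 spindle checkpoint genes and partners of the anaphase-promoting complex (APC) 4 had positive values, with a median of 0.16, and 0 passed the test. With 1 library left out that median ran from -0.033 (without EV replicate 2) to 0.43 (without EV replicate 4). Cdc20, which activates the APC, stood at 41.35, 24.2, 27.5 and 57.7 CPM in EV. Its sh-Kmt2d values were 64.6, 44.35, 69.9, 75 and 128 CPM. Of the 5 sh-Kmt2d libraries 4 lay above every EV library, and replicate 2 lay below EV replicate 4 (log2 fold change 1.01 ± 0.37, SE, edgeR, adjusted p = 0.167; 0.75 without sh-Kmt2d replicate 5). Ube2c, the ubiquitin-conjugating enzyme of the APC, stood at 22, 15.5, 14.9 and 44.8 CPM in EV. In sh-Kmt2d it stood at 43.9, 33.8, 45.55, 70.8 and 329.5 CPM. EV replicate 4 lay inside the range of sh-Kmt2d replicates 1 to 3, and the log2 fold change of 2.10 ± 0.76 (SE, adjusted p = 0.167) was 0.99 without replicate 5. Bub1, Bub1b and Ttk, kinases and a kinase-like protein of the spindle checkpoint, had log2 fold changes from -0.11 to 0.16. Bub1 had 27.4 ± 11.3 CPM among EV libraries (SD, n = 4) against 28.1 ± 12.3 CPM among sh-Kmt2d libraries (SD, n = 5) (0.04 ± 0.39, SE, adjusted p = 0.942). By library Bub1 read 29.56, 15.91, 22.02 and 42.14 CPM for EV, then 31.76, 21.36, 46.06, 28.17 and 13.24 CPM for sh-Kmt2d, highest in sh-Kmt2d replicate 3 and lowest in sh-Kmt2d replicate 5.

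**Figure D3:**
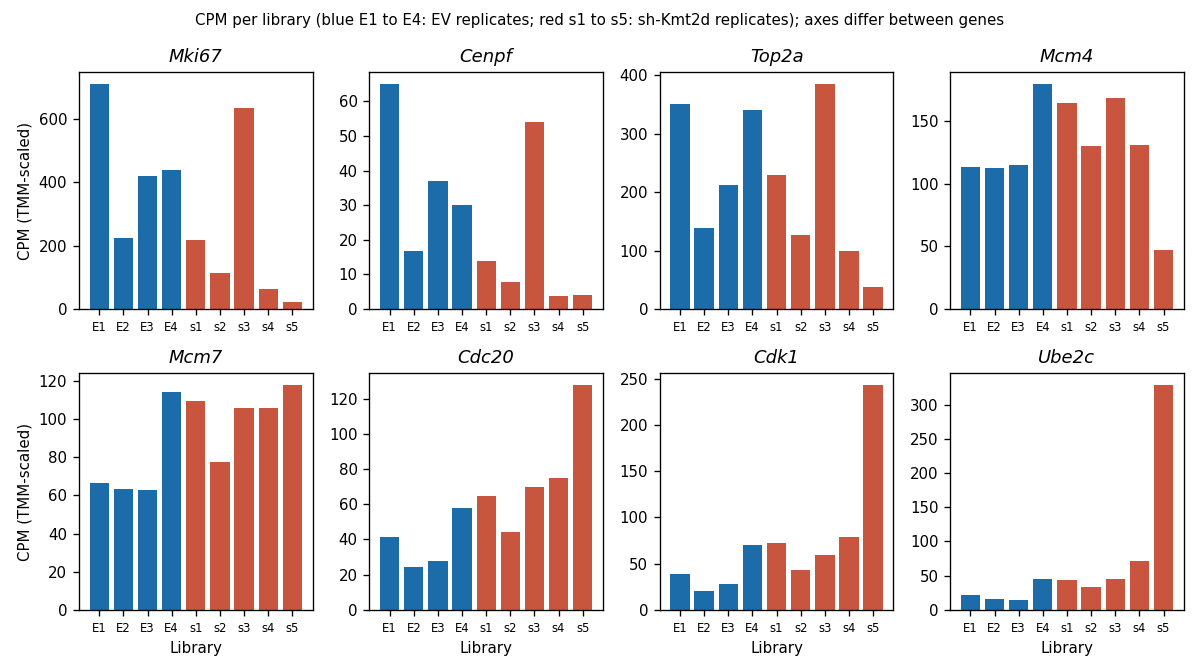
TMM-scaled CPM (vertical axes, each starting at 0 and differing between genes) of 8 genes in each EV library (blue, E1 to E4) and each sh-Kmt2d library (red, s1 to s5). Mki67, Cenpf and Top2a are low in s4 and s5 and high in s3, while Cdk1 and Ube2c reach 244 and 329.5 CPM in s5.

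Of the 9 chromosome and spindle genes 3 had positive and 6 negative values, with a median of -0.36, and 0 passed the test. That median was -0.078 without sh-Kmt2d replicate 5 and 0.075 without the libraries of title 110. Mki67, whose product coats mitotic chromosomes, stood at 711, 223, 421 and 437 CPM in EV. In sh-Kmt2d it stood at 219, 114, 634, 63.96 and 20.8 CPM. Only sh-Kmt2d replicate 3 lay inside the EV range, and the log2 fold change of -1.09 ± 0.82 (SE, edgeR, adjusted p = 0.347) did not pass. Cenpe, a kinetochore motor, stood at 95.4, 32.9, 65.05 and 58.8 CPM in EV, then at 30.3, 17.2, 78.7, 6.19 and 4.10 CPM in sh-Kmt2d (-1.20 ± 0.75, SE, adjusted p = 0.275). Cenpf, a kinetochore protein, stood at 65.15, 16.75, 37.1 and 29.9 CPM in EV, then at 13.9, 7.92, 53.97, 3.67 and 4.10 CPM in sh-Kmt2d (-1.14 ± 0.78, SE, adjusted p = 0.309). Both rested on 13 counts in sh-Kmt2d replicate 5. As for Mki67, only sh-Kmt2d replicate 3 lay inside the EV range of each, and EV replicate 1 was the highest of the 9 libraries for all 3. Without sh-Kmt2d replicate 3 the log2 fold changes were -2.10 (Mki67), -2.10 (Cenpe) and -2.30 (Cenpf), each with an adjusted p of 0.0897 by edgeR. Without title 110 they were -0.46, -0.58 and -0.56 in the same order, and with titles as random blocks -2.17, -2.003 and -1.99.

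Birc5, the survivin subunit of the chromosomal passenger complex, ran the other way. It stood at 31.5, 18.8, 17.7 and 55.6 CPM in EV, then at 49.3, 34.9, 47.45, 64.6 and 218 CPM in sh-Kmt2d, with a log2 fold change of 1.41 ± 0.61 (SE, edgeR, adjusted p = 0.172) that was 0.66 without sh-Kmt2d replicate 5. Top2a, the topoisomerase that untangles sister chromatids, had 261 ± 102.7 CPM among EV libraries (SD, n = 4) against 176 ± 136 CPM among sh-Kmt2d libraries (SD, n = 5). Kif11, a motor that separates spindle poles, had 37.8 to 102.4 CPM in EV and 6.62 to 109 CPM in sh-Kmt2d. Its lowest level, in sh-Kmt2d replicate 5, rested on 21 counts. Tpx2, a spindle assembly factor, had 58.9 ± 26.2 CPM among EV libraries (SD, n = 4) against 57.8 ± 30.6 CPM among sh-Kmt2d libraries (SD, n = 5) (-0.02 ± 0.47, SE, adjusted p = 0.975). Its libraries read 64.24, 32.54, 45.78 and 93 CPM for EV, then 71.72, 43.78, 99.14, 57.02 and 17.34 CPM for sh-Kmt2d, highest and lowest in those same sh-Kmt2d replicates 3 and 5. Kif20a, a motor of cytokinesis, and Nusap1, a microtubule-binding protein, had 34.65 ± 14.1 and 59.3 ± 31.7 CPM among EV libraries (SD, n = 4) against 42 ± 13.8 and 73.3 ± 16.2 CPM among sh-Kmt2d libraries (SD, n = 5).

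**Figure D4:**
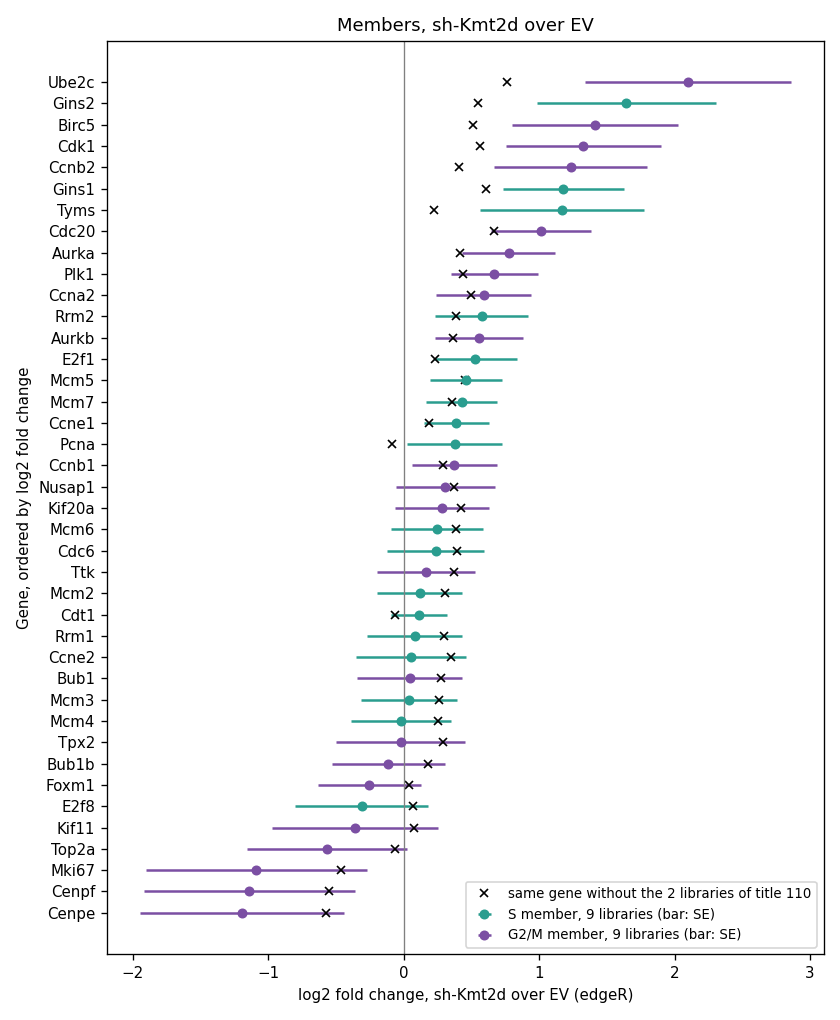
Log2 fold change, sh-Kmt2d relative to EV (horizontal axis), for the 40 genes (vertical axis, in order of value), with S phase genes in green and G2/M genes in purple, bars of 1 SE, and a cross for the value without the 2 libraries of title 110. Long-transcript genes (Cenpe, Cenpf, Mki67) lie at the bottom and Ube2c, Gins2 and Birc5 at the top, and most crosses lie nearer to 0 at both ends.

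S phase and G2/M genes had medians that were alike with all 9 libraries and moved with single libraries. The 18 S phase genes had 16 positive values and a median log2 fold change of 0.31, and the 22 G2/M genes had 14 positive values and a median of 0.29. With 1 library left out, the S phase median ran from 0.22 (without EV replicate 2) to 0.52 (without EV replicate 4), and the G2/M median from 0.073 to 0.62 for the same libraries. At an unadjusted p under 0.05, 2 S phase (11.1%) and 4 G2/M genes (18.2%) were higher, against 17.3% of all genes. The mean log2 CPM of the S phase genes was 5.45, 5.21, 5.31 and 6.14 for EV replicates 1 to 4, with 5.95, 5.55, 6.03, 5.95 and 5.88 for sh-Kmt2d replicates 1 to 5. That of the G2/M genes was 5.67, 4.68, 5.10 and 6.02 in EV, with 5.67, 5.07, 6.11, 5.38 and 5.18 in sh-Kmt2d. EV replicate 4 had the highest S phase mean of all 9 libraries, and sh-Kmt2d replicate 3 the highest G2/M mean. The S phase mean minus the G2/M mean came to 0.16 ± 0.31 among EV libraries (SD, n = 4) against 0.39 ± 0.30 among sh-Kmt2d libraries (SD, n = 5), a difference of 0.23 that is smaller than either SD. Without the 3 long genes, all of which belong to G2/M, it turned to -0.077, and among short genes alone (Gins1, Gins2, Pcna and Tyms against Ube2c, Birc5 and Cdk1) it was -0.47. These means over chosen genes were not tested.

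**Figure D5:**
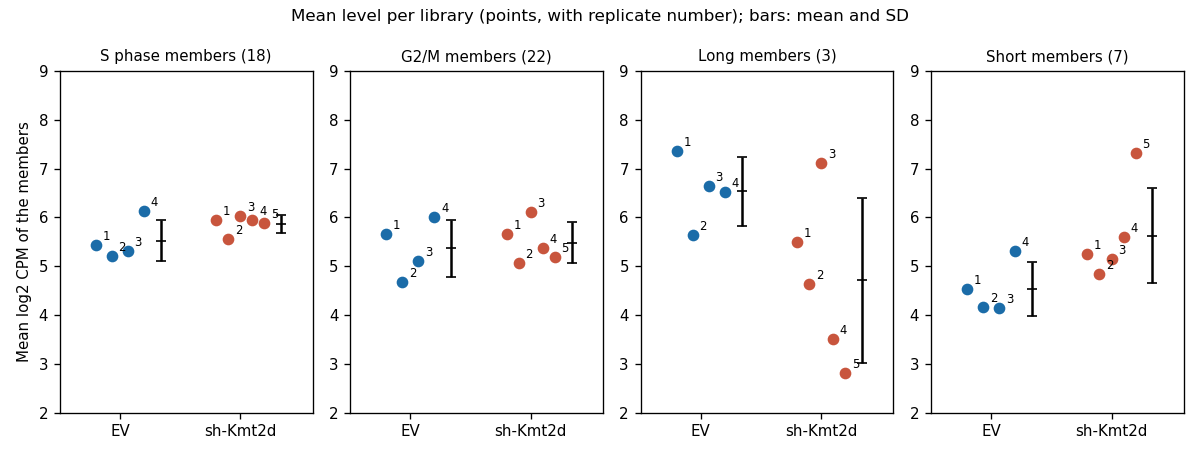
Mean log2 CPM (vertical axis) of the S phase, G2/M, long and short genes in each library (points with replicate numbers, EV blue and sh-Kmt2d red), with the group mean and SD as a bar. The groups overlap in all 4 panels, and sh-Kmt2d libraries run from 2.82 to 7.12 for the long genes, against 5.55 to 6.03 for the S phase genes.

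Genes of long and of short transcripts lay far apart. The 3 genes with long transcripts had a median log2 fold change of -1.14 and 7 with short ones (Ube2c, Birc5, Gins1, Gins2, Pcna, Tyms and Cdk1) a median of 1.33, although Mki67, Cenpe, Cenpf, Ube2c, Birc5 and Cdk1 all belong to G2/M. Long and short are here by known size, since transcript lengths were not used. These lists were chosen with earlier results of these data known. The median log2 CPM of the long genes minus that of the short was 2.11, 1.08, 2.05 and 0.39 for EV replicates 1 to 4, with -0.54, -0.98, 0.79, -3.38 and -5.73 for sh-Kmt2d replicates 1 to 5. Its mean was 1.41 ± 0.82 for EV (SD, n = 4) and -1.97 ± 2.59 for sh-Kmt2d (SD, n = 5), and sh-Kmt2d replicate 3 lay above EV replicate 4. By title number the means were 2.11 (78), 1.17 (87), -0.24 (103) and -4.56 (110). The ratio of Mki67 to Ube2c counts within a library was 32.3, 14.4, 28.4 and 9.77 in EV, with 4.99, 3.38, 13.9, 0.903 and 0.0632 in sh-Kmt2d, so that sh-Kmt2d replicate 3 again lay inside the EV range. The index of genes outside the 40 moved with it (3.55, 2.97, 3.84 and 2.11 in EV, then 1.11, 0.75, 2.50, -1.02 and -4.55 in sh-Kmt2d), and the part of RNA quality in this was not tested. With that index as a term, a choice made after the data were seen, the medians were 0.18 for the long and -0.03 for the short genes. Of the 40 genes 18 changed sign and 0 passed (edgeR, smallest adjusted p = 0.419), while 3 of all 13349 genes passed. The index itself measures the balance of long and short transcripts, and only sh-Kmt2d replicate 3 lay inside its EV range. This fit can therefore hardly tell index and group apart. Without the libraries of title 110 the medians of the long and short genes were -0.56 and 0.55.

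Libraries within EV differed widely. EV replicate 4 exceeded EV replicate 2 for 38 of the 40 genes, by a median of 1.26 on the log2 scale, with Nusap1 at 1.77 and Pcna at -0.23. Both carry title 87. Between groups, sh-Kmt2d replicate 3 and EV replicate 4 had the closest index values (2.50 and 2.11). They differed by a median of -0.03, with 18 genes higher in the sh-Kmt2d library and a range from -0.42 (Tyms) to 0.85 (Cenpf). The index of EV replicate 2 (2.97) was almost as close, but its level of the 40 genes was not. Their mean log2 CPM was 4.92 there, against 6.08 for sh-Kmt2d replicate 3 and 6.07 for EV replicate 4. Whether libraries of like index have like levels was not tested. EV replicate 4 also held more RNA of 2 other cell types than any other library. The 6 erythroid markers summed to 352 CPM there, to 13.6 to 67.3 CPM in the other EV libraries and to 26.1 to 93.8 CPM in sh-Kmt2d, and the 6 neutrophil markers to 191 CPM, 6.46 to 13.45 CPM and 2.02 to 46.6 CPM in the same order. No erythroid marker was at 0 in any library, and Camp, Elane and Mpo were at 0 in some. Their part in the level of the 40 genes was not tested. In sh-Kmt2d replicate 5 the 5 T cell markers reached 845.5 CPM, against 202 to 399 CPM in sh-Kmt2d replicates 1 to 4 and 189 to 240.3 CPM in EV. The 7 B cell markers were high there too, at 33600 CPM against 10900 to 14770 CPM in sh-Kmt2d replicates 1 to 4. The TMM factor of sh-Kmt2d replicate 5 raises all its CPM, and its part in these sums was not tested. The 7 macrophage markers ran from 169.6 to 636 CPM in EV and from 153 to 308.5 CPM in sh-Kmt2d. The 4 platelet markers were low and did not overlap between groups, at 5.10 to 6.17 CPM in EV and 1.18 to 2.02 CPM in sh-Kmt2d, with Gp9 at 0 in some libraries. The 5 stromal markers summed to 0.258 to 1.61 CPM and 0.286 to 5.04 CPM, with Col3a1, Pdgfrb and Dcn at 0 in some libraries. The part of these cells was not tested either.

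Other genes of the same pathways were described in the same way. Of 26 further replication genes 18 were positive with a median log2 fold change of 0.38. At an unadjusted p under 0.05, 5 (19.2%) were higher and 0 lower, against 17.3% and 11.1% of all genes, and none passed after adjustment. Dut, which keeps uracil out of DNA, had the smallest p (49.1, 44.6, 41.9 and 78.95 CPM in EV, and 85.2, 75.6, 79.3, 122.5 and 368 CPM in sh-Kmt2d; 1.44 ± 0.53, SE, edgeR, adjusted p = 0.167; 0.75 without sh-Kmt2d replicate 5). Of 36 further mitosis genes 19 were positive, with a median of 0.057 that ran from -0.15 (without sh-Kmt2d replicate 3) to 0.31 (without EV replicate 4). Of these, 3 (8.3%) reached an unadjusted p under 0.05 on the higher side and 0 on the lower. Bub3, a checkpoint protein, was the one of smallest p, at 0.92 ± 0.36 (SE, adjusted p = 0.167), or 0.57 without sh-Kmt2d replicate 5.

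Values of the G1 cyclins differed in sign. Ccnd3, the D cyclin of germinal centre B cells, stood at 72.2, 59.5, 63.5 and 106.6 CPM in EV, then at 132.7, 113.5, 129, 167 and 417 CPM in sh-Kmt2d. Every sh-Kmt2d library lay above every EV library, including EV replicate 4, and the log2 fold change of 1.34 ± 0.44 (SE, edgeR, adjusted p = 0.167) was 0.84 without sh-Kmt2d replicate 5. Ccnd1, a D cyclin little used by B cells, was low throughout, at 3.93, 3.43, 2.25 and 2.45 CPM in EV, then at 1.47, 1.19, 1.77, 1.09 and 0.315 CPM in sh-Kmt2d. These groups did not overlap either (-1.27 ± 0.37, SE, edgeR adjusted p = 0.167, and 0.0263 with DESeq2). Over all genes, 5.72% were higher and 5.12% lower without overlap, and DESeq2 called 5.05%. The lowest Ccnd1 value, 0.315 CPM, came from sh-Kmt2d replicate 5, the library with the fewest counts. Of the 6 G1 cyclins and kinases, 2 reached an unadjusted p under 0.05 on the higher side and 1 on the lower. Over all genes the shares were 17.3% and 11.1%. Besides Ccnd3 and Ccnd1 these included Cdk4 (1.24 ± 0.50, SE, edgeR, adjusted p = 0.167, and 0.59 without sh-Kmt2d replicate 5). Of 8 genes of the pocket proteins and the DREAM complex, which hold cell cycle genes silent in resting cells, 6 were negative with a median of -0.49, or -0.24 without sh-Kmt2d replicate 5 and -0.15 without title 110. Rb1, the retinoblastoma gene, stood at 70.7, 102.5, 95.7 and 41.8 CPM in EV, then at 44.4, 46.1, 44.9, 26.2 and 5.05 CPM in sh-Kmt2d, where EV replicate 4 again lay among the sh-Kmt2d values (-1.21 ± 0.54, SE, adjusted p = 0.174).

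Reads of overlapping genes may add to some of these values. Of the 40 genes 15 overlap another RefSeq gene, such as Cdc20 with Elovl1, Gins2 with Gse1 and Mcm7 with Ap4m1, and the strand setting of the counting is not given in the sources used here.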

How the data were processed

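RNA-seq libraries (TruSeq v2 kit, per the labels' protocols) came from B220-enriched lymphoma cells. The submitters' processing notes list CASAVA 1.8.2, HTSeq 0.6.0 and build mm9. The deposited tables hold whole-number read counts per Ensembl gene, made by the authors; the aligner is not given in the sources used here. Reads with more than 1 alignment (36.48% to 73.68% of those listed) and the other 4 summary rows name no gene and were left out. The 6 H3K4me1/2 peak lists were not used.

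Symbols came from the Ensembl to symbol table. Counts of the 9 libraries were filtered (filterByExpr), scaled by TMM and tested with edgeR 4.0.16 (robust quasi-likelihood, EV against sh-Kmt2d) over all 13349 genes with Benjamini-Hochberg adjustment at 0.05. Alternatives used DESeq2 1.42.0 and limma 3.58.1 (voom with quality weights, with equal weights, or with titles as random blocks, correlation 0.439). The same edgeR steps were run on simulated counts with seeded changes. Those counts lacked the long and short imbalance between libraries seen here, so that run does not show how the test behaves under it. All 40 genes could be named; values in every library are given for the long genes, the main short genes and the genes of smallest and largest p in each role, and of other lists up to 3 genes of smallest p were named. The 40 genes, the lists and the alternatives were chosen with earlier results of these data known. Sequences came from RefSeq (GRCm38.p6).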

Additional observations from a re-analysis of the deposited data

Results flagged for a closer look

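In 80 combinations of gene and group and 12 of summary level and group, a sample was noted when its gap to the nearest other sample, over the group's range on the log2 scale, passed Dixon's 95% value (0.829 for 4 samples, 0.71 for 5). Chance gives about 1 in 20 groups, and 8 were found. In EV, replicate 4 lay apart for Mcm4 (179.6 CPM) and Mcm7 (114.4 CPM), both above the others. In sh-Kmt2d, replicate 5 lay apart for Mcm4 (46.98 CPM, low) and for Gins2 (95.22 CPM), Pcna (300.8 CPM) and Tyms (138.1 CPM), all high. Replicate 2 of sh-Kmt2d lay apart on the low side for Mcm7 (77.68 CPM) and Ccnb1 (9.394 CPM).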

How the results depend on the processing

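Calls among the 40 genes stayed at 0 in every alternative run except 2. Voom with quality weights called 27 higher and 3 lower (0 with equal weights), and leaving out EV replicate 4 with sh-Kmt2d replicate 5 called 16 higher. At an unadjusted p under 0.05, with 1 library left out at a time, 0 (without EV replicate 2 or 3) to 16 (without EV replicate 4) genes were higher and 0 to 3 (without sh-Kmt2d replicate 3) lower. Of all genes, 6.58%, 4.14% and 14.5% were higher without EV replicates 2, 3 and 4 in turn. Without sh-Kmt2d replicate 3, 17.1% of all genes were lower. The count higher was 27 with quality weights (32.3% of all genes) and 26 without EV replicate 4 and sh-Kmt2d replicate 5 (23.4%). It was 0 without title 110 (11.4% of all genes), with the title as block (2.1%) and with the long and short index as a term (6.1%). The count lower was 3 with quality weights (32.6% of all genes), 2 with equal weights (13.9%) and 1 with the index (5.45%).

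With the index as a term, the medians turned to 0.18 (long) and -0.033 (short), and the log2 fold changes to 0.28 (Mki67), 0.18 (Cenpe), 0.17 (Cenpf), -0.033 (Birc5), -0.44 (Pcna), -0.37 (Tyms), -0.15 (Gins2), 0.55 (Mcm4), -0.017 (E2f1), 0.37 (Foxm1) and 0.63 (Tpx2). The difference of the S phase and G2/M means turned to -0.077 without the long genes and -0.47 among short genes only. Without title 110, values turned to -0.088 (Pcna), 0.26 (Mcm4), 0.036 (Foxm1) and 0.29 (Tpx2). With quality weights they turned to -0.039 (Pcna), 0.41 (Mcm4), 0.045 (Foxm1) and 0.48 (Tpx2). Without EV replicate 4 and sh-Kmt2d replicate 5 they turned to 0.40 (Mcm4), 0.083 (Foxm1) and 0.52 (Tpx2). Total counts gave -0.038 (Rrm1), -0.060 (Ccne2) and -0.070 (Bub1). Leaving out 1 library at a time gave -0.0036 to 0.48 (Pcna), -0.14 to 0.19 (Mcm4), -0.059 to 0.38 (Rrm1), -0.22 to 0.42 (Ccne2), -0.21 to 0.33 (Bub1) and -0.31 to 0.29 (Tpx2). The fit with the index can hardly tell index and group apart, and the cause of these changes was not tested.

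Replicate numbers used here follow the order of deposit and pair nothing. Titles also end in a suffix number, of which 1, 2 and 5 occur in both groups. Deviations from the group means of libraries with the same suffix correlated from -0.332 to 0.45. For libraries with different suffixes the range was -0.497 to 0.397. What a shared suffix marks was not tested. With that suffix as a replicate block, added after the data were seen, 0 of the 40 passed, while 2 of all 13349 genes passed. At an unadjusted p under 0.05, 15 were higher (9.95% of all genes). Values turned to -0.048 (Pcna), 0.29 (Mcm4), 0.12 (Foxm1) and 0.48 (Tpx2). In that fit sh-Kmt2d replicate 5, alone with its suffix, adds nothing to the comparison. A term from protein length was not run, since protein lengths were not used here. Depth limits several genes in sh-Kmt2d replicate 5, among them Cenpe and Cenpf at 13 counts each. Others were E2f8 (15 counts), Kif11 (21), Ccne2 (23), Ttk (28) and Cdc6 (32).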
